A study of Capra hircus with 6 samples.

Results

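The genes ANXA3, RCHY1, TMEM165, PARM1, NAAA, CENPC, ALB, AFP, AMBN and SLC4A4 lie beside the casein cluster of the goat. They were chosen by symbol and by place: each lies within 100 genes of CSN1S1, the gene of alpha-s1-casein, in the goat gene order. None is counted here among the milk protein genes, although the serum albumin that ALB encodes is carried into milk from the blood. The list was drawn up with earlier results of these data known, and place alone does not give it. They are 10 of the 6535 genes named on the array and 10 of the 26 genes of that neighbourhood, milk proteins left out, that have a probe. Of the 15 neighbourhood genes that could be tested, the 9 on the list are those with the largest absolute Low over High ratios, 0.0533 or more on the log2 scale, and the other 6 lie at 0.0489 or less. Counts, medians and p-values of the listed genes are therefore a description and no independent evidence of a difference. Together they had 11 probes, NAAA having 2 and the others 1 each.

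Lactating mammary gland was compared between goats with a Low and goats with a High CSN1S1 genotype, all fed a control diet ad libitum. There were 3 pairs of goats, each of 1 Low and 1 High animal, and each pair was hybridised to 2 spotted oligonucleotide arrays with the Cy5 and Cy3 dyes exchanged. This gave 6 arrays and 12 channels, with 2 spots per probe on each array. The labels name the genotypes only as Low and High, and give no allele, breed, age or stage of lactation. Whether the goats of a pair were related is not stated either. Values are log2 ratios of Low over High, negative where the Low goat of the pair was lower, and the replicate was the pair (n = 3). The tissue was whole gland, so fewer cells of a type and less RNA per cell cannot be told apart.

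The caseins are encoded by a cluster of neighbouring genes that mammary epithelial cells transcribe at a very high rate during lactation under prolactin and glucocorticoid control. Goat breeds carry CSN1S1 alleles that differ widely in how much alpha-s1-casein they yield. An allele is inherited together with the chromosome segment around it, so goats chosen by CSN1S1 genotype may also differ in the genes beside it. The flanking genes have unrelated roles, from transport in the Golgi to plasma proteins of the liver, although AMBN, a gene of the mineralised tissues, belongs to the same secreted calcium-binding phosphoprotein family as the caseins.

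CSN1S1 itself checked the labels. Its ratio was -2.63, -2.20 and -2.44 in pairs 1, 2 and 3, a mean of -2.43 (limma adjusted p = 0.000478). High channels were saturated in 3 of its 12 spots and Low channels in 0, so Low stood at 18.6% of High or less. Probes for CSN1S2, CSN3, LALBA and PAEP, further milk proteins of a lactating gland, were above background in 12 of 12 channels. Across the 6 arrays, 74.12% to 82.18% of probe spots were not flagged. After both arrays of a pair were turned to Low over High, their correlation across probes was -0.22, -0.39 and -0.44 in pairs 1, 2 and 3. Over all probes tested, the median absolute dye effect, taken as the deviation of either dye orientation from the mean of both, was 0.108, against a median absolute ratio of 0.041.

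In gene order TMEM165 and CENPC lie before CSN1S1, 92 and 41 places away. The other 8 genes lie after it, on the side of CSN3, with AMBN 12, SLC4A4 21, ALB 33, AFP 34, PARM1 56, RCHY1 58, NAAA 66 and ANXA3 97 places away. The order is that of the RefSeq goat assembly ARS1.2, in which CSN1S2 lies 3 and CSN3 lies 7 places from CSN1S1. None of the 10 genes is next to a casein gene.

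Of the 10 genes, 9 had a probe that passed the filter on dim spots, and CENPC did not. In the Low goats 7 of the 9 were lower and 2 were higher by the mean ratio. Of these 9 genes, 0 passed an adjusted p of 0.05 in limma, where 6 of 6181 probes did (0.0971%), CSN1S1 among them. An unadjusted p under 0.05 was reached by ANXA3 and SLC4A4, so by 2 of 9, and by 0 of the 6 tested neighbours not listed. That makes 2 of the 15 tested neighbourhood genes, against 5.61% of all probes tested. The median ratio of the 9 was -0.09, and by pair it was -0.09, -0.05 and -0.07, while the median was -0.0489 over the 15 neighbourhood genes, -0.0002 over the 6 not listed and -0.000474 over all 6181 probes. Single-array ratios were below 0 in 38 of 54 cases (70.37%), against 54 of 90 (60%) for the 15 neighbourhood genes and 49.74% over all probes tested. The 15 include the 9 listed genes, so their shares are no separate comparison. By the mean ratio, 3 of the 6 not listed were lower and 3 higher. ANXA3, RCHY1, TMEM165, ALB and SLC4A4 were lower in all 3 pairs, 5 of 9 genes, against 13.61% of all probes tested. With AREG, which is not listed, they make 6 of the 15 neighbourhood genes. No gene had Low goats and High goats whose levels did not overlap, which 0.987% of probes tested had.

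**Figure D1:**
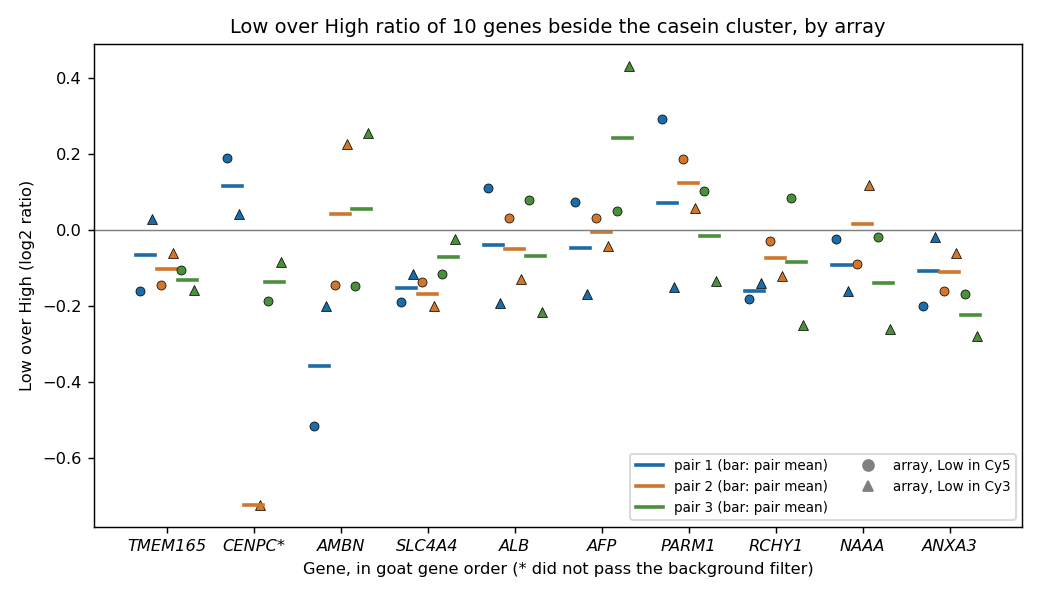
Low over High on the log2 scale for each of the 10 genes, in gene order, with 1 point per array (circles with Low in Cy5, triangles with Low in Cy3, coloured by pair) and a bar at the mean of each of the 3 pairs; the asterisk marks CENPC, which was not tested. All 6 points of ANXA3 and of SLC4A4 lie below 0, and those of ALB lie above 0 with Low in Cy5 and below 0 with Low in Cy3.

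ANXA3 encodes annexin A3, which binds phospholipid membranes in a calcium-dependent way. Its probe, Bt00007151, was above background in 12 of 12 channels, at 2.15 to 20.6 times the local background. The log2 level was 7.94, 8.40 and 8.79 in the High goats of pairs 1, 2 and 3, and 7.83, 8.29 and 8.56 in the Low goats. The Low goat was thus the lower one of each pair, while the groups overlapped. The array ratios with Low in Cy5 were -0.20, -0.16 and -0.17, and those with Low in Cy3 were -0.02, -0.06 and -0.28. All 6 arrays lay below 0, as they did for 1.38% of all probes tested. The mean of the pairs was -0.15 ± 0.07 (SD, n = 3), with a 95% interval of -0.26 to -0.03, an unadjusted p of 0.0195 and an adjusted p of 0.776 in limma. Low therefore stood at 90.2% of High, with an interval of 83.3% to 97.7%. An exact sign-flip test over 3 pairs gave p = 0.25, two-sided, the smallest it can give.

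SLC4A4 encodes an electrogenic sodium bicarbonate cotransporter of epithelial membranes. Probe Bt00001951 was above background in 12 of 12 channels, at 2.64 to 16.2 times background. High goats had log2 levels of 8.43, 8.51 and 9.26 and Low goats 8.28, 8.34 and 9.19. Both goats of pair 3 lay above all others, and within each pair the Low goat was lower. With Low in Cy5 the array ratios were -0.19, -0.14 and -0.12, and with Low in Cy3 they were -0.12, -0.20 and -0.02. SLC4A4 was the other gene below 0 on all 6 arrays, and its mean hardly moved with the dye, at -0.15 with Low in Cy5 and -0.11 with Low in Cy3. The mean of the pairs was -0.13 ± 0.05 (SD, n = 3; 95% interval -0.24 to -0.02), with an unadjusted p of 0.0276 and an adjusted p of 0.822 in limma. That is 91.3% of High (84.6% to 98.6%).

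TMEM165 encodes a Golgi membrane protein of calcium and manganese transport, whose expression in the mouse mammary gland is known to rise at lactation. Probe Bt00005755 was above background in 12 of 12 channels, at 2.16 to 7.18 times background. The log2 levels were 7.94, 8.50 and 7.91 in the High goats and 7.88, 8.40 and 7.78 in the Low goats. Pair 2 was high in both genotypes. Array ratios were -0.16, -0.15 and -0.11 with Low in Cy5 and 0.03, -0.06 and -0.16 with Low in Cy3, so 5 of 6 were below 0. The pairs gave -0.07, -0.10 and -0.13, a mean of -0.10 ± 0.03 (SD, n = 3), with an interval of -0.21 to 0.0052 that held 0 (unadjusted p = 0.0589, adjusted p = 0.894 in limma). Low was at 93.3% of High.

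PARM1 encodes a mucin-like membrane protein of the secretory pathway, first described in the rat prostate as regulated by androgen. Its probe, Bt00004883, was dim: it was above background in 6 of 12 channels, 5 of them read in Cy5 and 1 in Cy3, and 4 of its 12 spots were flagged as empty. Median signal was 1.80 times background. Log2 levels were 6.79, 6.99 and 7.09 in the High goats and 6.85, 7.16 and 7.13 in the Low goats. Array ratios were 0.29, 0.19 and 0.10 with Low in Cy5 and -0.15, 0.06 and -0.14 with Low in Cy3. The sign thus went with the dye in 2 of 3 pairs. The mean was 0.06 ± 0.07 (SD, n = 3; interval -0.06 to 0.18; unadjusted p = 0.264 and adjusted p = 0.895 in limma). With plain background subtraction it was -0.34, so its direction was not settled.

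NAAA encodes a lysosomal enzyme that hydrolyses N-acylethanolamines such as palmitoylethanolamide. Its probe Bt00001918 was far above background in 12 of 12 channels, at 13.2 to 82.3 times background. Log2 levels were 11.17, 11.48 and 10.69 in the High goats and 11.08, 11.49 and 10.55 in the Low goats. Pair 3 was low in both genotypes, and the difference within pairs was far smaller. Array ratios were -0.02, -0.09 and -0.02 with Low in Cy5 and -0.16, 0.12 and -0.26 with Low in Cy3. The pairs gave -0.09, 0.01 and -0.14, with a mean of -0.07 ± 0.08 (SD, n = 3) and an interval of -0.19 to 0.05 (unadjusted p = 0.189 and adjusted p = 0.894 in limma). A second NAAA probe, Bt00007650, was above background in 1 of 12 channels and had 10 of 12 spots flagged as empty. It gave a ratio on 1 array alone, of -0.23, and was not tested, so the probes of NAAA disagreed in abundance.

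RCHY1 encodes a RING-type ubiquitin ligase, also called Pirh2, that marks p53 for degradation. Probe Bt00000720 was above background in 11 of 12 channels, at 1.44 to 7.51 times background. The High goats had log2 levels of 7.52, 7.97 and 7.78 and the Low goats of 7.36, 7.89 and 7.69. Low was the lower goat in every pair, with overlap between the groups. Array ratios with Low in Cy5 were -0.18, -0.03 and 0.08, and with Low in Cy3 they were -0.14, -0.12 and -0.25. The pairs gave -0.16, -0.08 and -0.08, a mean of -0.11 ± 0.05 (SD, n = 3; interval -0.22 to 0.0018), with an unadjusted p of 0.0529 and an adjusted p of 0.888 in limma. Low was at 92.8% of High in the main processing, while the ratio was -0.22 with plain background subtraction.

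CENPC encodes a protein of the inner kinetochore, which links the chromosome's centromere to the spindle machinery of dividing cells. Probe Bt00004854 was near background. It exceeded background in 4 of 12 channels, all 4 of them read in Cy5, at a median of 1.62 times background. Log2 levels of 6.98, 6.74 and 7.16 in the High goats and 7.09, 6.56 and 7.03 in the Low goats overlapped between the groups. The ratios were 0.12, -0.72 and -0.14 in pairs 1, 2 and 3, and that of pair 2 came from 1 array, since the other had no unflagged spot. The mean of -0.25 ± 0.43 (SD, n = 3) was not tested, and the spread exceeds the mean.

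ALB encodes serum albumin, made by the liver and carried into milk from the blood, and AFP encodes alpha-fetoprotein, its relative in the fetal liver. Probe Bt00006301 of ALB was above background in 12 of 12 channels, at 2.65 to 20.2 times background. Its log2 levels were 8.39, 8.33 and 8.69 in the High goats and 8.35, 8.28 and 8.63 in the Low goats. Pair 3 was high in both genotypes. The ratio turned with the dye in every pair: 0.11, 0.03 and 0.08 with Low in Cy5, and -0.19, -0.13 and -0.22 with Low in Cy3. The means of the pairs, in which the dye cancels, were -0.04, -0.05 and -0.07. They averaged -0.05 ± 0.01 (SD, n = 3; interval -0.16 to 0.05), the smallest spread between pairs among the 9 tested genes (unadjusted p = 0.253 and adjusted p = 0.895 in limma).

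Probe Bt00004185 of AFP was above background in 11 of 12 channels, at 1.42 to 5.71 times background. Log2 levels were 7.64, 7.72 and 7.59 in the High goats and 7.59, 7.71 and 7.83 in the Low goats, so that the Low goat of pair 3 stood above the other 5. Array ratios were 0.07, 0.03 and 0.05 with Low in Cy5 and -0.17, -0.04 and 0.43 with Low in Cy3. The value of 0.43 was the highest single-array ratio of the 10 genes. The mean was 0.06 ± 0.16 (SD, n = 3; interval -0.10 to 0.22; unadjusted p = 0.386 and adjusted p = 0.909 in limma), and without pair 3 it was -0.03. ALB and AFP are adjacent in gene order, and their pair values had the same sign in pairs 1 and 2 and opposite signs in pair 3.

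Of 13 hepatocyte and plasma protein genes on the array, ALB and AFP included, 11 passed the filter. In the Low goats 7 were lower and 4 higher, with a median ratio of -0.01, and 0 passed the adjusted threshold in limma and 0 an unadjusted p of 0.05. ALB, FGG, SERPINA1 and AHSG were above background in 12 of 12 channels, and AFP, APOA1 and APOC3 in 11. APOB was the 1 gene of the list above background in 0 channels. The summed net signal of all 13 genes, before normalization, was 2493 to 3507 units in the Low goats and 2532 to 3313 units in the High goats. These ranges overlap, but they set goats of different pairs together. The arrays measured RNA, not the albumin protein carried in from the blood, and which cells gave the ALB signal was not tested.

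AMBN encodes ameloblastin, an enamel matrix protein of teeth, and is the nearest of the 10 genes to the caseins. Probe Bt00004900 was above background in 12 of 12 channels, at 3.18 to 14.3 times background. Log2 levels were 9.12, 9.09 and 8.05 in the High goats and 8.76, 9.13 and 8.11 in the Low goats. Both goats of pair 3 lay well below the other 4. Array ratios were -0.52, -0.15 and -0.15 with Low in Cy5 and -0.20, 0.23 and 0.25 with Low in Cy3. The pairs gave -0.36, 0.04 and 0.05, the widest spread among the tested genes, with a mean of -0.09 ± 0.23 (SD, n = 3; interval -0.30 to 0.13; unadjusted p = 0.355 and adjusted p = 0.907 in limma). Without pair 1 the mean was 0.05. What the AMBN probe binds in mammary RNA was not tested. Of 3 enamel and mineral matrix genes on the array, AMBN included, 3 were kept, 2 lower and 1 higher, with a median of -0.02 and 0 called.

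**Figure D2:**
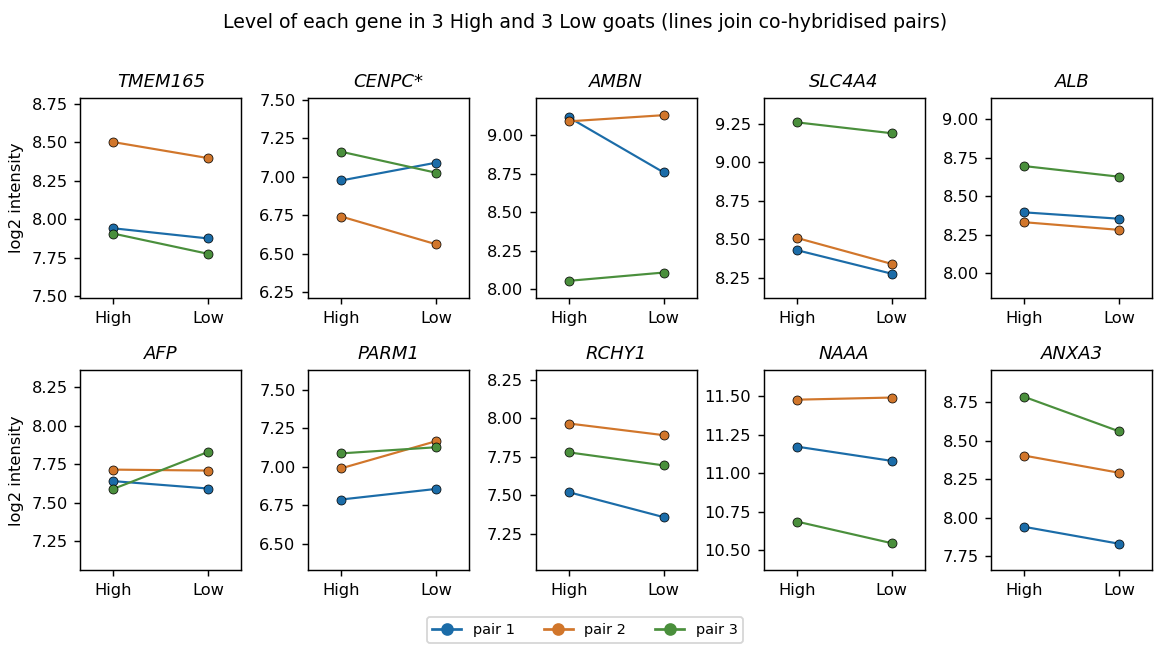
Log2 level of each gene in every goat after normalization within and between arrays, with lines joining the Low and High goat of a pair (3 pairs). For most genes the pairs lie further apart than the goats within a pair.

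Levels, which include spots flagged as empty, had a wider range between pairs than the largest difference within a pair in all of the 10 genes but AFP. For CENPC this rests on such spots: its level range was 0.44, against a within-pair difference of 0.18 in levels but a ratio of -0.72 in pair 2 from unflagged spots. The range of the pair means was 1.03 for AMBN, against a largest difference within a pair of 0.36. It was 0.87 against 0.14 for NAAA, 0.87 against 0.17 for SLC4A4 and 0.79 against 0.22 for ANXA3. For AFP it was 0.10 against 0.24. The median range over all probes tested was 0.479, and 91.0% of them had a smaller range than AMBN and 3.71% a smaller one than AFP. The goats of a pair shared their arrays, so pair and array cannot be told apart in these levels.

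Several ratios moved with the dye. The mean ratio with Low in Cy5 and that with Low in Cy3 were 0.07 and -0.18 for ALB. They were -0.27 and 0.09 for AMBN and 0.19 and -0.08 for PARM1. These tested genes thus changed sign with the dye. The file headers carry 2 dates, called day 1 and day 2 here, with 3 arrays each. Which step of the work they date was not established. Every array held 1 goat of each genotype. Day 1 held both arrays of pair 1 and the pair 3 array with Low in Cy3, and day 2 held the rest, so day cannot be told apart from the goats and partly goes with the dye. On day 1 the mean array ratio was -0.17 for ANXA3, -0.11 for SLC4A4 and -0.10 for TMEM165. On day 2 it was -0.13, -0.15 and -0.10. RCHY1 gave -0.19 and -0.02, and NAAA gave -0.15 and 0.0029 on days 1 and 2. The untested CENPC gave 0.05 and -0.46.

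The neighbourhood as a whole held 26 measured genes other than milk proteins, of which 15 passed the filter. In the Low goats 10 of these were lower and 5 higher, 0 passed the adjusted threshold in limma, and the median ratio was -0.05. By pair the median was -0.04, -0.02 and -0.06. Apart from the 10 genes, 16 genes lay in the neighbourhood and 6 of them passed, 3 lower and 3 higher, with a median of -0.0002. IGFBP7, an insulin-like growth factor binding protein, was at -0.05 and BMP2K, a kinase, at 0.04. AREG, a ligand of the epidermal growth factor receptor, was at -0.03 and MOB1B, of Hippo signalling, at 0.03. These 4 had the lowest unadjusted p in limma among the other genes, and none was below 0.368. LAGE3, the nearest to CSN1S1 at 3 places, was above background in 0 of 12 channels. Before CSN1S1, 2 of 9 genes passed the filter, and after it 13 of 17.

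**Figure D3:**
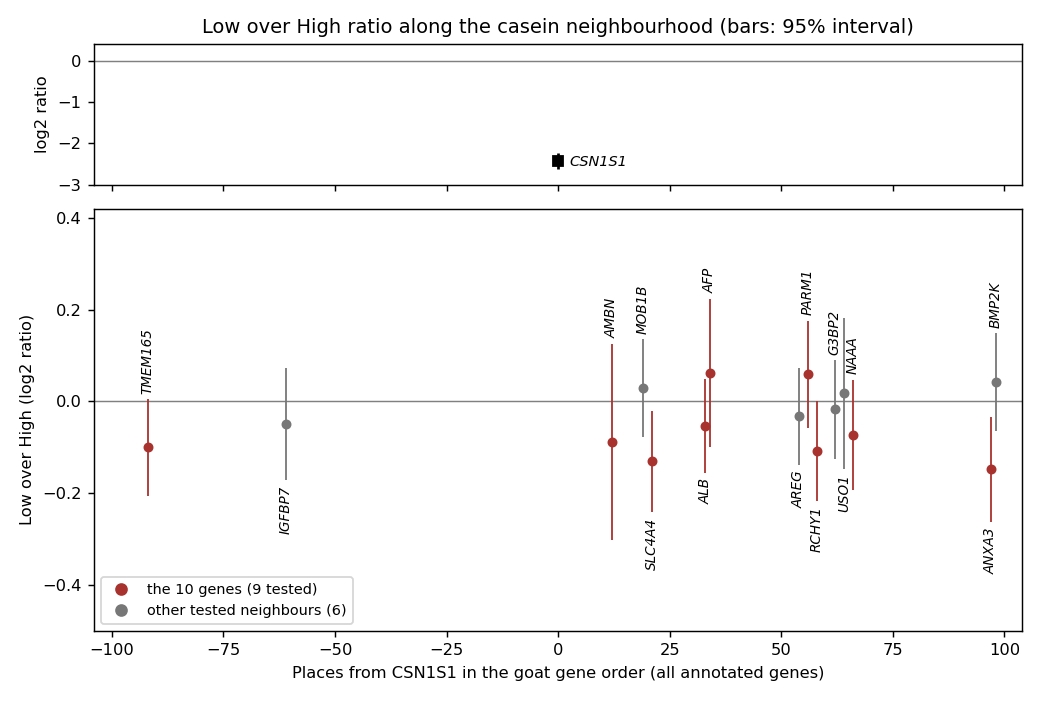
Low over High (log2, mean over 3 pairs with 95% interval from limma) against the place in gene order from CSN1S1 at 0, with CSN1S1 in the upper panel and the neighbourhood genes that passed the filter in the lower one, on an axis of its own (red for the 10 genes, grey for the others). CSN1S1 lies at -2.43, and the 15 other genes lie between -0.15 and 0.06.

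Genes related in role to the 10 were counted as groups, each including the gene itself, and 0 passed the adjusted threshold in limma in any of them. Of 6 annexins on the array, 5 passed the filter, 3 lower and 2 higher, with a median of -0.03 beside ANXA3 at -0.15. Of 11 bicarbonate and proton transport genes, 9 passed, 6 lower and 3 higher, at a median of -0.03 beside SLC4A4 at -0.13. Of 12 genes of Golgi and secretory calcium and manganese transport, 7 passed, 5 lower and 2 higher, with a median of -0.03 beside TMEM165 at -0.10. These medians include the listed gene, which was chosen with its ratio known. Of 6 genes for p53 ubiquitin ligases, 4 passed, 2 lower and 2 higher, at a median of -0.03, and COP1 at -0.23, named after its value was seen, had an unadjusted p under 0.05 in limma. Of 16 centromere and kinetochore genes, 11 passed, 8 lower and 3 higher, with a median of -0.03 and without CENPC. Of 6 lipid amide hydrolases and lysosomal amidases, 6 passed, 4 lower and 2 higher, at a median of -0.04 beside NAAA at -0.07.

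Among 4693 other named genes with a ratio on all 6 arrays, those nearest to ANXA3 in their 6 array ratios were TMEM165, at a Euclidean distance of 0.151, TRIM38, at 0.165, and LSM4, at 0.183. The median distance was 0.610. These distances share the 6 arrays and their dye effects, and are given as a description. ANXA3 was taken for its lowest p, and both ANXA3 and TMEM165 were listed with their ratios known. Their closeness is therefore no independent evidence that these genes vary together.

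Markers of cell types were read beside these ratios. Of 7 luminal epithelial markers that passed the filter, 1 was lower and 6 higher in the Low goats, with a median of 0.05, and KRT18 (0.13) had an unadjusted p under 0.05 in limma. The summed net signal of all 8 luminal markers on the array, passed or not, was 3471 to 6057 units in the Low goats and 3231 to 5659 in the High goats. All 5 myoepithelial and smooth muscle markers that passed were higher, at a median of 0.08. Of these, KRT17 at 0.23 and MYLK at 0.19 had an unadjusted p under 0.05 in limma, and the sums were 2809 to 4305 units in Low and 2893 to 3959 in High. Of 5 leukocyte markers that passed, 4 were lower and 1 higher, at a median of -0.04, and CD79A (-0.19) had an unadjusted p under 0.05 in limma. The sums over all 7 leukocyte markers on the array were 2755 to 4271 units in Low and 2844 to 3985 in High. CD3E, CD79A, CD14, CSF1R and CD68 were above background in 12 of 12 channels and CD2 in 0. Adipocyte markers were 4 lower and 1 higher (median -0.01), with LEP at -0.29 under an unadjusted p of 0.05 in limma. Endothelial markers were 0 lower and 3 higher (0.04), and fibroblast markers 1 lower and 2 higher (0.0022). In each of these lists 0 passed the adjusted threshold in limma, and the sums of Low and High goats overlapped in those given. The sums are of signal before normalization and set goats of different pairs together. Their overlap therefore does not describe the difference within a pair. The ratios of KRT17, MYLK, CD79A and LEP lay further from 0 than any of the 9 tested genes. They too moved with the dye. With Low in Cy5 and with Low in Cy3, KRT17 was at -0.0064 and 0.46 and LEP at -0.57 and -0.0056. In the same order CD79A was at -0.06 and -0.32 and MYLK at 0.10 and 0.29. KRT18 changed sign with the dye, at 0.36 and -0.10. These marker genes were named after their values were seen. Their part in the ratios of the 10 genes was not tested.

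**Figure D4:**
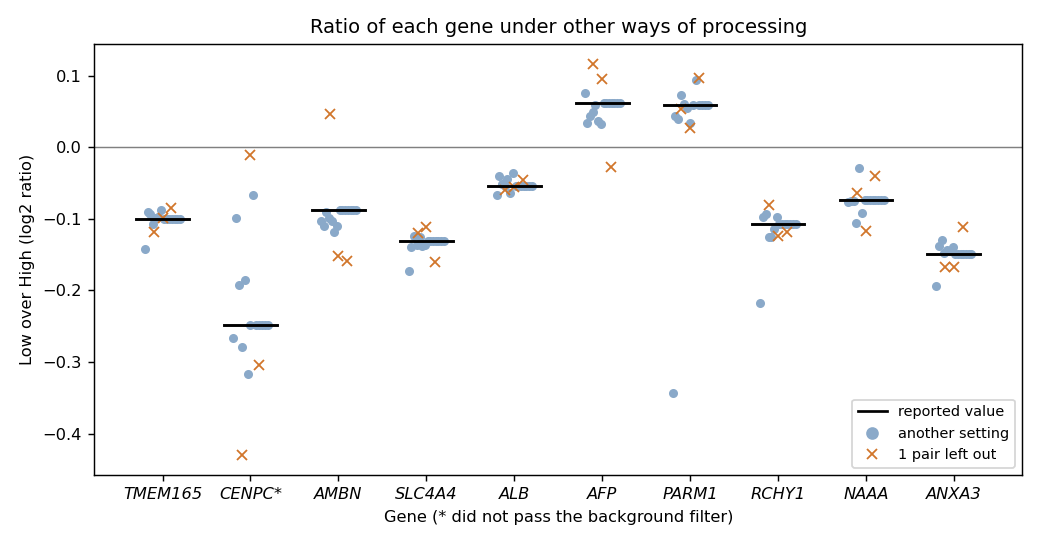
Low over High (log2) of each gene under the main processing and under each alternative tried (black bar for the reported value, blue points for other settings, orange crosses with 1 pair left out). ANXA3, RCHY1, TMEM165, NAAA, ALB and SLC4A4 stay below 0 in every alternative, while PARM1, AFP and AMBN each cross 0 in 1.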

How the data were processed

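RNA of 6 goats was measured on 6 arrays in 2 colours, and the deposited scanner files held 1 channel each. Per the file headers, the authors measured each spot's mean intensity and background mean intensity with ImaGene 6.0.1 (6.0 per the labels); the deposited background SD is a signal in the same pixel units. The deposited series values are log2 ratios per spot, used as an alternative. Against the scanner ratios they gave r of 0.996 to 0.999 across bright spots, which settled their direction, Low over High. A correlation does not change with the base of the logarithm, so it cannot settle their scale. Taken as log2, they gave -0.1396 for ANXA3, against -0.1383 from the scanner values without background correction. Their column medians were 0.0205, -0.0135, 0.0186, -0.0076, 0.0038 and -0.0094, and their centring stays unknown. In 12 of 12 files the header named the labelled dye.

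Background was corrected by normexp (offset 50) and ratios by global loess within arrays (limma 3.58.1, R 4.3.3), with 2442 control spots at weight 0 and spots flagged as manual or empty missing. Duplicate spots, then the arrays of a pair, were averaged. A probe was kept when its signal, averaged over spots not manually flagged, exceeded background mean plus 2 background SD in either goat, on 1 or both arrays of every pair. This kept 6181 of 8379 probes (4916 named genes). The pair ratios were tested against 0 by lmFit and eBayes (two-sided), and p-values were adjusted over all 6181 probes by the Benjamini-Hochberg method. Intervals (95%) come from this fit. Levels per goat are log2 intensities after loess and Aquantile, averaged over both dyes from all spots not manually flagged, so those of dim probes need not differ by the ratio. The number of arrays limits precision. The steps were also run on simulated data over the 6181 probes, with 20 iterations. They found 95.7% of the changed probes at the smallest size, 1.25-fold, and 100% at the largest, 4-fold. On average 7.12% of the simulated calls were false. Each iteration held 50 changed probes per size, with independent normal noise and a dye effect that cancelled within pairs. An adjusted threshold is harder to pass where fewer probes change, and the goats gave only 6 calls. The shares found therefore do not give the power in these data. With no change put in, 1.95 probes were called on average, beside 6 in the goats.

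Probes were designed for cattle, and symbols came from an old platform annotation: 6840 probes had 1 symbol, 93 several (not named) and 1446 none. Assembly ARS1.2 gave gene order only; coordinates are not printed. The members and lists were chosen with earlier results of these data known. The naming rule took all 10 genes, CSN1S1, of the other neighbours those past the threshold or else the 4 with the lowest p, and the 3 genes nearest to the gene with the lowest p. Alternatives changed background, normalization, flags, filter, moderation, pairs, dye term, gene order and window.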

Additional observations from a re-analysis of the deposited data

How the results depend on the processing

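Over 17 alternatives, ANXA3 stayed between -0.19 and -0.11, RCHY1 between -0.22 and -0.08, TMEM165 between -0.14 and -0.09, NAAA between -0.12 and -0.03, ALB between -0.07 and -0.04 and SLC4A4 between -0.17 and -0.11. Several of these alternatives change only the filter or the test, and so cannot move a ratio. Background subtraction, which adds no offset, put ANXA3 at -0.19, RCHY1 at -0.22, TMEM165 at -0.14 and SLC4A4 at -0.17. The percentages of High given for these genes therefore depend on the background correction. None of the 9 tested genes passed the threshold under any alternative run, and the lowest adjusted p in limma was 0.555, for ANXA3. PARM1 was -0.34 with background subtracted, and it gave no value when signal above background was required on all 6 arrays. Leaving out 1 pair gave -0.0271 (without pair 3) to 0.117 for AFP and -0.159 to 0.047 (without pair 1) for AMBN. CENPC, untested, ranged from -0.43 to -0.01 over 16 alternatives.

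The count of probes past the threshold, 6, was 0 with background subtracted (353 at an unadjusted p under 0.05 in limma) and 0 without moderation (328 unadjusted). It was 10 with median centring, 10 with no spot removed for a flag, 2 with no filter, 15 with signal above background on all 6 arrays and 1 with a trended robust prior. With the 2 arrays of a pair as a random replicate block and a dye term it was 30, of which 28 were lower. Leaving out 1 pair gave 1 (without pair 1), 2 (without pair 2) and 28 (without pair 3). A filter averaged over unflagged spots, chosen after seeing the data, gave 2. The cause of these changes was not tested. The median of the neighbourhood was -0.0761 with background subtracted and -0.0879 within 25 genes of CSN1S1, where 3 genes were kept. Dim probes limit PARM1 and CENPC most.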

Other observations

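A few genes outside the naming rule are given because their values stood out once seen. JCHAIN, the joining chain of polymeric immunoglobulins made by plasma cells, lies 14 places from CSN1S1, close to AMBN. Its ratio was -0.10, -0.16 and -1.18 in pairs 1, 2 and 3. That of pair 1 came from 1 array alone, with Low in Cy3, so the dye did not cancel in it. Of its 12 spots, 4 were flagged as empty. The probe was above background in 4 of 12 channels and failed the filter, so the mean of -0.48 ± 0.61 (SD, n = 3) was not tested. CD79A, a B cell marker, was at -0.29, -0.12 and -0.17 in the same pairs, a mean of -0.19 (limma adjusted p = 0.643).

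SPP1 encodes osteopontin, a phosphoprotein of bone and of milk, of the same gene family as AMBN. Low over High was 0.14, 1.41 and -0.97 in pairs 1, 2 and 3, a mean of 0.19 ± 1.19 (SD, n = 3; limma adjusted p = 0.953). Each array of pair 2 was above 0, at 1.08 and 1.74, and each of pair 3 below, at -1.46 and -0.48. In pairs 2 and 3 the goats thus differed in SPP1 by more than in any of the 10 genes beside the casein cluster, in opposite directions.

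KIT, YTHDC1 and LAGE3, all of the neighbourhood, were above background in 0 of 12 channels.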
